A study of Mus musculus with 20 samples.

Results

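The genes described here are the tumour suppressor *Trp53*, which encodes p53, its inhibitors *Mdm2* and *Mdm4*, the *Cdkn2a* gene that encodes ARF and INK4A, and 6 transcriptional targets of p53: *Cdkn1a*, *Ccng1*, *Zmat3*, *Sesn1*, *Trp53inp1* and *Eda2r*. They were taken by symbol and Entrez identifier, and all 10 were found among the 25869 genes of the deposited table. Expression was measured by RNA-seq in 20 mouse libraries of a C57BL/6 CRISPR activation study, in which the *dCas9a-SAM* cassette sits in the Rosa26 locus behind a CAG promoter. The 10 mouse embryonic fibroblast (MEF) libraries, from E14 embryos, were WT (n = 2), *dCas9a-SAM* KI/+ without an sgRNA (n = 2), *dCas9a-SAM* KI/+ with the non-targeting sgNT (n = 2) and *dCas9a-SAM* KI/+ with sg*Bcl-2* (n = 4, 2 from each of 2 MEF lines). The 6 lymphoma cell lines and the 2 primary tumours carried the Eµ-*Myc* transgene, *dCas9a-SAM* KI/+ and sg*Bcl-2*, and arose in lethally irradiated mice that had received transduced haematopoietic stem and progenitor cells, so that a tumour sample can still hold cells of the host. Lines A (titled 14_179_IgMp), B (15_180_IgMp), C (16_202_IgMp) and D (17_213_IgMp) and both tumours (20 and 21, after their titles) were labelled IgM positive, and lines E (18_214_IgMn) and F (19_216_IgMn) IgM negative. The 2 preB-ALL libraries came from BCR-ABL1 (p190T/+) leukaemias, labelled P190CreERLSLErg and P190RagCreErg, that were grown with IL7. Their RNA was prepared with another kit and sequenced in another run, so tumour type and batch cannot be told apart in any comparison with them.

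p53 is a transcription factor that halts the cell cycle or triggers apoptosis in stressed cells. MDM2 marks p53 for degradation and MDM4 blocks its activity, while ARF binds MDM2 and so releases p53. Transgenic Myc is known to raise ARF in pre-malignant B cells, and Eµ-*Myc* lymphomas are known for losing either *Cdkn2a* or *Trp53* function. RNA levels do not show whether the p53 protein is active or mutated, and no protein or mutation data were analysed here. The paper did blot p53 and ARF protein in spleens of sick mice, from control lymphomas and from the kind of lymphoma described here. It reports that tumours with p53 mutations were not markedly more or less frequent in either kind. Those blots were not matched to the libraries described here.

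Depth lay between 12474885 and 26678417 counted reads per library, with the preB-ALL libraries the shallowest. The guide target *Bcl2* stood at 46.8 to 71.8 counts per 1000000 reads (CPM) in sg*Bcl-2* MEFs against 13.4 to 13.7 in sgNT MEFs, and at 99.4 to 244 in lines and tumours. B cell markers summed to 2902 CPM or more in each line, tumour and preB-ALL library and to at most 28.5 in the MEFs. The WT library of MEF line 2 stood apart: its fibroblast markers summed to 3502 CPM, against 11418 to 19000 in the other 9 MEF libraries, and its myeloid markers to 221 CPM, against at most 8.58. Both preB-ALL libraries also held fibroblast markers, with 3907 CPM in library 1 and 1769 in library 2 against at most 35.0 in a line, although *Dcn* was at 0 in both.

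Reads of *Cdkn2a* were counted for the gene as a whole, and the gene has 2 starts on the minus strand of chromosome 4, 12427 bases apart. The upstream start makes the ARF transcript and the downstream one the INK4A transcript, and the deposited value does not separate them. The 2 windows are shown because, of the 10 genes, *Cdkn2a* differed most in level between the lymphomas. They run 5′ to 3′ from 250 bases before to 50 bases after each start in RefSeq (GRCm38.p6), and capitals mark the GC box GGGCGG on either strand. The ARF window is chr4:89294570-89294869 and the INK4A window is chr4:89282143-89282442.

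Cdkn2a ARF start: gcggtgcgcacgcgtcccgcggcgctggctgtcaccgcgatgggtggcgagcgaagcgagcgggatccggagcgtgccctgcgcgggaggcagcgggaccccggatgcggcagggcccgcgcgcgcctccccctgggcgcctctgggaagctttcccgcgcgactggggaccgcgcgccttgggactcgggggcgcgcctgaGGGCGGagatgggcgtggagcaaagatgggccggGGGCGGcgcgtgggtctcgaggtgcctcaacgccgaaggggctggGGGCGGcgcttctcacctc

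Cdkn2a INK4A start: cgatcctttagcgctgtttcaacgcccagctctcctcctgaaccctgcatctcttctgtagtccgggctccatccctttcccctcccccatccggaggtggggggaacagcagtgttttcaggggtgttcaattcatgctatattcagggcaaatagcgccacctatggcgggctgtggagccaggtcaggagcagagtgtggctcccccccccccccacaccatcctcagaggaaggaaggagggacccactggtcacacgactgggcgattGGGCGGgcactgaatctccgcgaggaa

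The ARF window had 77.0% G and C, 45 CpG dinucleotides and 3 GC boxes, and the INK4A window 60.3%, 12 and 1. More CpG than in 98.1% of the 32851 RefSeq windows of this length were counted for ARF and more than in 60.4% for INK4A. A GC box was present in 35.7% of all windows. The E2F motif (TTTGGCGC or TTTCCCGC, both strands) was found 1 time in the ARF window, not in the INK4A window, and in 1.56% of all windows. The E-box CACGTG, a binding sequence of Myc, was in neither *Cdkn2a* window and in 7.15% of all windows.

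Windows of 3 p53-regulated genes that were lower in the lymphoma lines than in MEFs are shown next, chosen because each holds a match to the p53 half-site. *Eda2r* was lower too, and its window and that of the downstream *Cdkn1a* start, which hold no match, are not shown. Capitals mark matches to the p53 half-site consensus and GC boxes on either strand, which did not overlap one another. The *Cdkn1a* window, chr17:29090729-29091028 on the plus strand, belongs to the gene's upstream start, 2790 bases from the downstream one. The *Ccng1* window is chr11:40755237-40755536 and the *Mdm2* window chr10:117710709-117711008, both on the minus strand.

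Cdkn1a upstream start: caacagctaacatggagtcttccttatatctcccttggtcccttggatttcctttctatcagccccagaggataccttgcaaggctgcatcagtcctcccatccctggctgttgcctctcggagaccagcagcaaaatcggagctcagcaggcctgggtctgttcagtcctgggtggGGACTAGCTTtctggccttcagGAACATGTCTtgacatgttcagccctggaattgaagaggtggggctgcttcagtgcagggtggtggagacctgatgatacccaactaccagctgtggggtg

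Ccng1: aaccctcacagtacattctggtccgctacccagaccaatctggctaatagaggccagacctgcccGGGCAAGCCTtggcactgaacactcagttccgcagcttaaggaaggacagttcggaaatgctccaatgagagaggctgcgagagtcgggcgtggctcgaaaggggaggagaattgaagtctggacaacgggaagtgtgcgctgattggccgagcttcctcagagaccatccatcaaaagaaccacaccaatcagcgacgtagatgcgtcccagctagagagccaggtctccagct

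Mdm2: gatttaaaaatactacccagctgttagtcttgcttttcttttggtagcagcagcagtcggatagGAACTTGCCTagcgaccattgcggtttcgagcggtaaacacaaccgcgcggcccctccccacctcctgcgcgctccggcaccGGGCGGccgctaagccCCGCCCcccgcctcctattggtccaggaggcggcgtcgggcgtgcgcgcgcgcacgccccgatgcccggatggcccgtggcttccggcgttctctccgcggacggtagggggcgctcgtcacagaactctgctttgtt

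A p53 half-site match was found 2 times in the upstream *Cdkn1a* window and once each in those of *Ccng1*, *Mdm2*, *Trp53* and the downstream start of *Sesn1*, compared with 8.36% of all windows holding at least 1. The windows of *Mdm4*, *Eda2r*, *Cdkn2a*, the downstream *Cdkn1a* start and the upstream *Sesn1* start held none. The RefSeq table gave 12 windows for 8 of the 10 genes, and none for *Zmat3* or *Trp53inp1*. A match describes letters in these windows and is not a measured binding site.

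**Figure D1:**
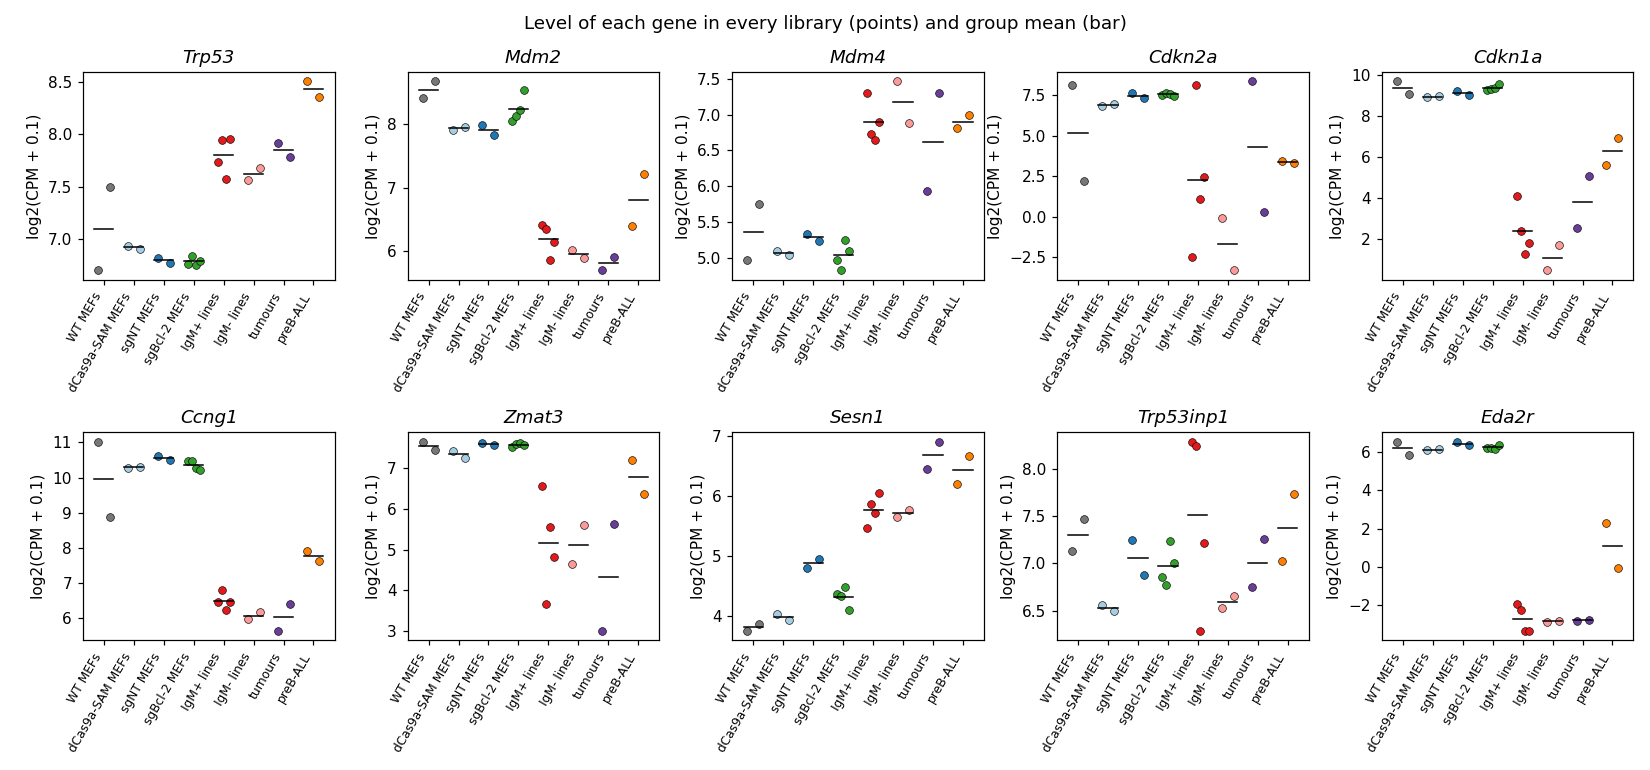
Level of each of the 10 genes as log2(CPM + 0.1) on the y axis in each library (points), by group on the x axis, with the bar at the mean of the log2 values. *Cdkn1a*, *Ccng1*, *Mdm2*, *Zmat3* and *Eda2r* sit lower in all lymphoma lines and tumours than in all MEF libraries, *Sesn1*, *Mdm4* and *Trp53* sit higher, and *Cdkn2a* spans the whole range in the lymphomas.

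*Trp53* RNA was present in every library. It is on chr11:69580348-69591873 of GRCm38. It measured 212 CPM in line A, 245 in line B, 190 in line C, 247 in line D, 189 in line E and 205 in line F. The tumours were within that range, with 241 in tumour 20 and 220 in tumour 21. PreB-ALL had more, with 362 and 327. The MEFs had less, between 104 and 122 in 9 libraries and 181 in the WT library of line 2. Every lymphoma and preB-ALL library was therefore above every MEF library, and both preB-ALL libraries above every lymphoma. The spread of *Trp53* over the 6 lines (SD of log2 CPM 0.17) was smaller than that of 9183 of the 11165 genes with a mean of at least 1 CPM there.

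*Mdm2*, on chr10:117688875-117710758, encodes the ubiquitin ligase that degrades p53 and is itself switched on by p53. It measured 58.0 to 85.4 CPM in the lines, 52.0 and 60.5 in the tumours, 84.2 and 148 in preB-ALL and 227 to 406 in the MEFs. *Mdm4*, on chr1:132986105-133030587, encodes the related inhibitor that lacks ligase activity of its own and is not known as a strong p53 target. It was lower in the MEFs, with 28.2 to 53.9 CPM, than in the lines, with 99.7 to 176, and preB-ALL lay within the range of the lines at 112 and 127. Tumour 20 had 60.8 CPM of *Mdm4*, below all 6 lines, and tumour 21 had 158. MEF and lymphoma libraries did not overlap for either inhibitor.

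*Cdkn2a*, on chr4:89274473-89294619, was the gene of the 10 that varied most between lymphomas. Line B held 276 CPM and tumour 20 held 329, both above the 117 to 200 CPM of the 8 *dCas9a-SAM* MEF libraries. The same 2 libraries had the highest fibroblast marker sums of the lymphomas (35.0 and 51.0 CPM against 2.27 to 12.5) and T cell marker sums (62.7 and 64.0 against 7.22 to 46.7), whose part in the *Cdkn2a* and *Cdkn2b* levels was not tested. In line B most of the fibroblast sum was *Sparc* (28.3 CPM). Relative to the sg*Bcl-2* MEF mean, the fibroblast sum was 0.214% in line B and 0.311% in tumour 20, and *Cdkn2a* was 146% and 174%. Line D held 5.43 CPM, line C held 2.01, tumour 21 held 1.10 from 22 reads and line E held 0.859, also from 22 reads. Line A held 0.0811 CPM from 2 reads, with an exact 95% counting interval of 0.00982 to 0.293. Line F held 0 reads of 23197483, which allows up to 0.129 CPM at a floor of 3 reads (exact 95% upper limit 0.159). The sample title of tumour 20 names the mouse of line B, the line that was also high, while its description names the mouse of line A. The preB-ALL libraries lay between these extremes, at 10.7 and 9.86 CPM. Counting intervals and floors cover counting error only, since reads without molecular identifiers are not independent molecules.

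Of 11165 genes with a mean of at least 1 CPM in the lines, 35 had a larger spread of log2 CPM over the 6 lines than *Cdkn2a*, whose SD was 4.11. The median SD over all those genes was 0.32. The WT MEFs were divided as well, with 282 CPM in line 1 and 4.56 in line 2, the library that stood apart on its markers.

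*Cdkn2b* and *Mtap* lie beside *Cdkn2a* on chromosome 4, and the 3 genes can be lost together in tumours. *Mtap*, a methionine salvage enzyme, was expressed in every library, with 97.4 to 160 CPM in the lines, 158 in tumour 20 and 69.0 in tumour 21. *Cdkn2b*, which encodes the INK4B inhibitor, was at 58.5 to 156 CPM in the MEFs. It was low in all lymphomas, but its 2 highest values there were in the libraries with high *Cdkn2a*: 2.25 CPM from 60 reads in line B and 1.18 from 27 reads in tumour 20. The other 6 lymphoma libraries had 1 to 3 reads each. No DNA measurement was analysed here, so a lost gene and a silent one cannot be told apart.

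**Figure D2:**
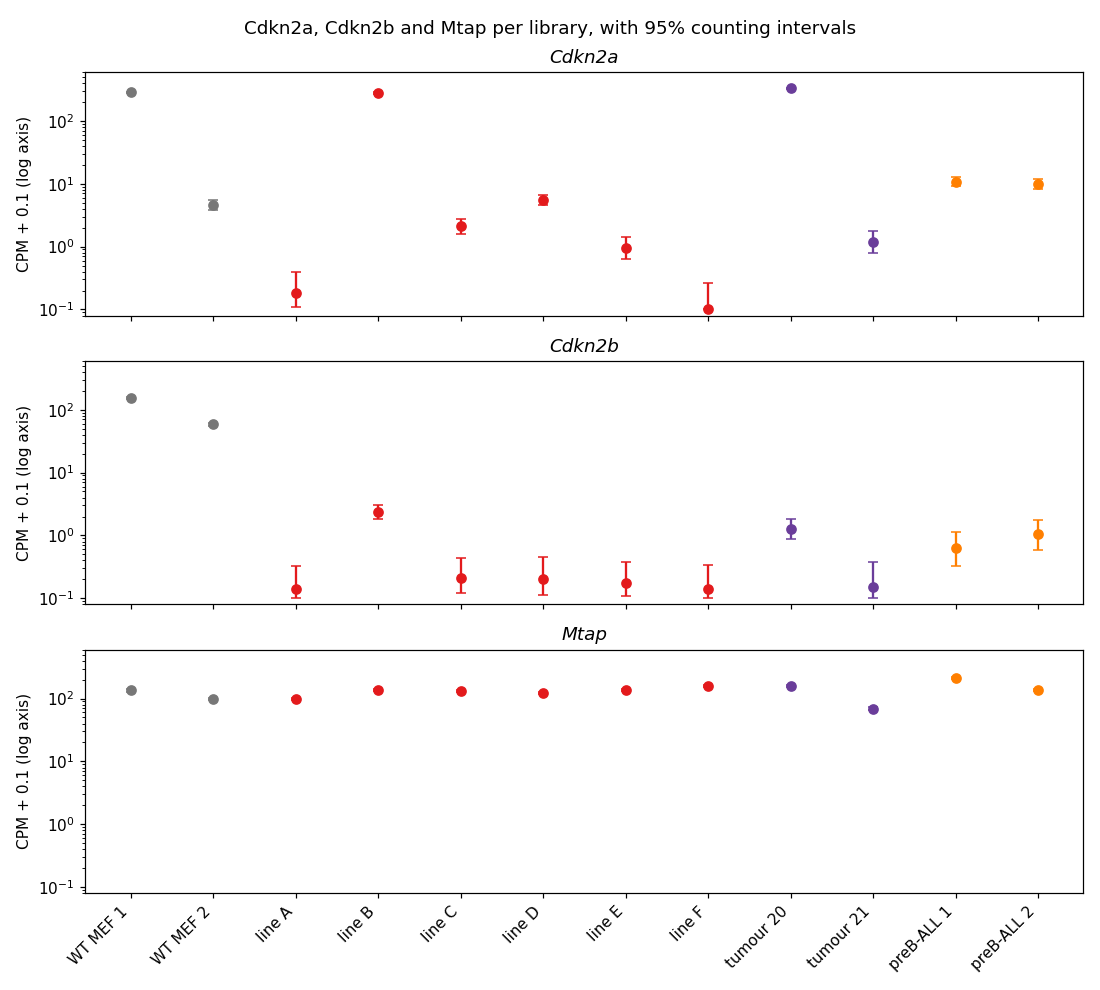
*Cdkn2a*, *Cdkn2b* and *Mtap* in the WT MEF, lymphoma and preB-ALL libraries, as CPM + 0.1 on a log axis, with exact 95% counting intervals (narrower than the symbol for most values). Line B and tumour 20 stand at 276 and 329 CPM of *Cdkn2a* and hold the 2 highest *Cdkn2b* values of the lymphomas, while *Mtap* is present throughout.

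The targets were described in the same way. *Cdkn1a*, on chr17:29090979-29100722, encodes the cyclin-dependent kinase inhibitor p21 that carries out p53-dependent arrest. It measured 487 to 831 CPM in the MEFs, 48.8 and 124 in preB-ALL, and 16.9 in line A, 5.21 in line B, 2.31 in line C, 3.39 in line D, 1.29 in line E and 3.19 in line F. Tumour 20 had 5.69 and tumour 21 had 33.8. Among lymphomas the highest values were thus those of tumour 21 and line A, both with little *Cdkn2a*, and the high-*Cdkn2a* line B and tumour 20 came next. Lines C to F, also with little *Cdkn2a*, had the lowest values. By their titles tumour 21 and line A share a mouse, as do tumour 20 and line B, so these libraries are then not independent lymphomas. An antisense gene overlaps exons of *Cdkn1a*, and whether strand was used in the counting was not stated.

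*Ccng1*, on chr11:40748552-40755309, encodes cyclin G1, a p53 target in the feedback on MDM2. It measured 473 to 2085 CPM in the MEFs, 239 and 197 in preB-ALL, 62.3 to 112 in the lines and 49.8 and 84.2 in the tumours. *Eda2r*, on chrX:97333837-97377234, encodes a receptor of the TNF receptor family. It stood at 58.0 to 93.7 CPM in the MEFs and was close to absent in lymphomas, with 4 reads in line A, 3 in line B, 1 each in lines E and F and in both tumours, and 0 in lines C and D. PreB-ALL had 71 reads (4.74 CPM) and 11 reads (0.882 CPM). For *Ccng1* and *Eda2r* alike, MEFs were highest, preB-ALL next and lymphomas lowest, with no overlap.

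*Zmat3*, on chr3:32334792-32365665, encodes an RNA-binding protein that acts in p53 tumour suppression. It measured 151 to 199.7 CPM in MEFs, 147 and 81.6 in preB-ALL, and ranged in the lymphomas from 94.6 in line A to 12.6 in line B and 7.97 in tumour 20. The 2 libraries with high *Cdkn2a* thus had the lowest *Zmat3*, but by their titles they share a mouse and are then not independent lymphomas. *Sesn1*, on chr10:41810574-41908436, encodes sestrin 1, which restrains mTORC1 under stress. It ran the other way from most targets, with 13.5 to 31.03 CPM in MEFs, 44.1 to 66.1 in lines, 73.3 and 101 in preB-ALL and 87.6 and 120.3 in tumours. *Trp53inp1*, on chr4:11156441-11174379, encodes a regulator of autophagy and apoptosis. It overlapped between all tissues, with 90.0 to 177 CPM in MEFs and 78.01 to 312 in lines, where lines A (312) and B (302) stood above the other 4 (78.01 to 149).

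Per kilobase of annotated exon, the order of the 10 genes differed between tissues. *Ccng1* led in sg*Bcl-2* MEFs with a median level of 378 CPM per kb, followed by *Cdkn1a* with 184 and *Cdkn2a* with 162. *Trp53* led in the lines with 51.6 CPM per kb, followed by *Ccng1* with 23.1, while *Cdkn1a* had 0.925 and *Eda2r* 0.00697. The ranges of *Cdkn1a* (174 to 210.1) and *Cdkn2a* (151 to 171) in the sg*Bcl-2* MEFs did not overlap, whereas those of *Sesn1* (11.1 to 16.6) and *Mdm2* (11.4 to 16.8) in the lines did.

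Lymphoma lines were next compared with preB-ALL, another B cell malignancy, by limma on log2(scaled CPM + 0.1), with Benjamini-Hochberg adjustment over all genes tested and a threshold of 0.05. The p-values measure the spread between these libraries, and changes are given with standard errors on that log2 scale. *Cdkn1a*, *Ccng1* and *Eda2r* were lower in the lines, and none of the 10 was higher. *Cdkn1a* was 15.6-fold lower (log2 change -3.97 ± 0.83 SE, n = 6 and 2, limma adjusted p = 0.00551), *Ccng1* 2.08-fold (-1.05 ± 0.19, adjusted p = 0.00271). *Eda2r* was 0.0595 CPM on average in the lines and 2.81 in preB-ALL. It reached the low-count filter (0.418 CPM) in 0 of 6 lines and both preB-ALL libraries, so it was tested only through the group where it was high and could pass only as lower, and its call supports nothing. The count of 3 of 10 stands beside 22.5% of all 13961 tested genes that were lower, 20.9% that were higher and 43.4% that passed either way, and the median change was -0.69 for the 10 genes and -0.07 for all genes. The fitted *Eda2r* change (-3.59 ± 0.65) depends on the pseudocount, as the lines hold 0 to 4 reads, and ranged from -5.33 to -1.47 over the alternative analyses.

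The other 7 genes did not pass. *Trp53* (-0.33 ± 0.13, adjusted p = 0.0783) and *Sesn1* (-0.31 ± 0.17, 0.166) had groups that did not overlap in CPM, which with the 3 called genes makes 5 of 10, beside 53.4% of all genes tested. *Mdm2* (-0.32 ± 0.21, 0.25), *Zmat3* (-1.27 ± 0.68, 0.161), *Mdm4* (0.45 ± 0.24, 0.168) and *Trp53inp1* (0.19 ± 0.55, 0.802) overlapped. *Cdkn2a* had a fitted change of -2.08 ± 2.61 (adjusted p = 0.545) but a higher mean CPM in the lines (47.4 ± 112 SD against 10.3 ± 0.586), as 1 of the 6 lines was far above preB-ALL and 5 were below. Its fitted change ranged from -3.53 to 2.47 over the alternatives and passed in none.

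Scaling between libraries mattered in this comparison. Without the TMM factors, the median change of all genes moved by 0.35 to -0.42, the split of calls went from 2914 higher and 3145 lower to 1691 and 4400, and *Trp53*, *Mdm2* and *Sesn1* also passed as lower (adjusted p = 0.00553, 0.046 and 0.0181), where 43.6% of all genes passed. With DESeq2, which scales libraries, *Trp53* passed too (-0.43, adjusted p = 0.00517). The range over all alternatives was 0.00517 to 0.249 for *Trp53*, 0.0372 to 0.972 for *Mdm2* and 0.0181 to 0.976 for *Sesn1*. *Mdm2* also passed without preB-ALL library 1 (-0.72, adjusted p = 0.0372), where, as wherever a single library of a group remains, it is assumed to vary like the other group. The *Cdkn1a* call was lost without preB-ALL library 2 (-3.39, adjusted p = 0.09, range over the alternatives 0.000845 to 0.09), and DESeq2 returned no adjusted p for it.

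Fibroblast markers moved with this result. Their sum in preB-ALL was 23.8% of the sg*Bcl-2* MEF mean in library 1 and 10.8% in library 2, with 10 of 10 tested markers lower in the lines and *Dcn* at 0 and *Lum* at or near 0 in both preB-ALL libraries. Single markers ranged from there to *Col6a1*, at 743 and 307 CPM in preB-ALL against 432 in the MEFs. On the scale of the MEF mean *Cdkn1a* stood at 7.31% and 18.6%, *Ccng1* at 18.2% and 15.0%, and *Eda2r* at 6.23% and 1.16%. *Cdkn1a* was thus higher in the preB-ALL library with fewer fibroblast reads, and *Ccng1* and *Eda2r* in the one with more. Other markers were lower in the lines as well, with 3 of 4 tested myeloid markers (sums 2.07 to 13.1 CPM in lines, 9.49 and 21.2 in preB-ALL) and 7 of 12 B cell markers (2902 to 5488 against 12990 and 17376). The part of other cells in the result was not tested, and in bulk RNA fewer cells of a type and less RNA per cell cannot be told apart.

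The lines were compared with sg*Bcl-2* MEFs, which carry the same guide target in another cell type. *Trp53* (1.71-fold), *Mdm4* (3.42-fold) and *Sesn1* (2.38-fold) were higher in the lines, and *Mdm2* (4.88-fold), *Cdkn1a* (194-fold), *Ccng1* (18.2-fold), *Zmat3* (6.07-fold), *Cdkn2a* and *Eda2r* lower. The limma adjusted p was 3.88e-06 for *Trp53* (log2 change 0.77 ± 0.08), 4.48e-06 for *Mdm4* (1.77 ± 0.18), 2e-06 for *Sesn1* (1.25 ± 0.11), 3.27e-08 for *Mdm2* (-2.29 ± 0.13), 2.68e-07 for *Cdkn1a* (-7.60 ± 0.55), 2.13e-10 for *Ccng1* (-4.19 ± 0.13) and 0.000392 for *Zmat3* (-2.60 ± 0.47), with 6 lines and 4 MEF libraries. *Eda2r* again passed the low-count filter only through the MEFs, so its direction was fixed, and its fitted change of -9.13 ± 0.29 ranged from -10.7 to -6.30 over the alternatives. *Trp53inp1* did not pass (0.06 ± 0.39, adjusted p = 0.898).

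These 3 higher and 6 lower genes are read against a background in which 36.3% of the 14620 tested genes were higher and 45% lower, so the share of 9 in 10 is close to the 81.3% called in all. The median change was -2.44 for the 10 genes and -0.27 for all genes, and TMM scaling shifted the latter by -0.17. Groups did not overlap for 8 of the 10 and for 75.3% of all genes tested. The *Cdkn2a* groups overlapped (line B was above all 4 MEF libraries), and its call (-6.76 ± 1.84, adjusted p = 0.00603) was lost with edgeR's quasi-likelihood test (-2.27, adjusted p = 0.25, range over the alternatives 6.56e-05 to 0.25). DESeq2 gave no adjusted p for it.

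**Figure D3:**
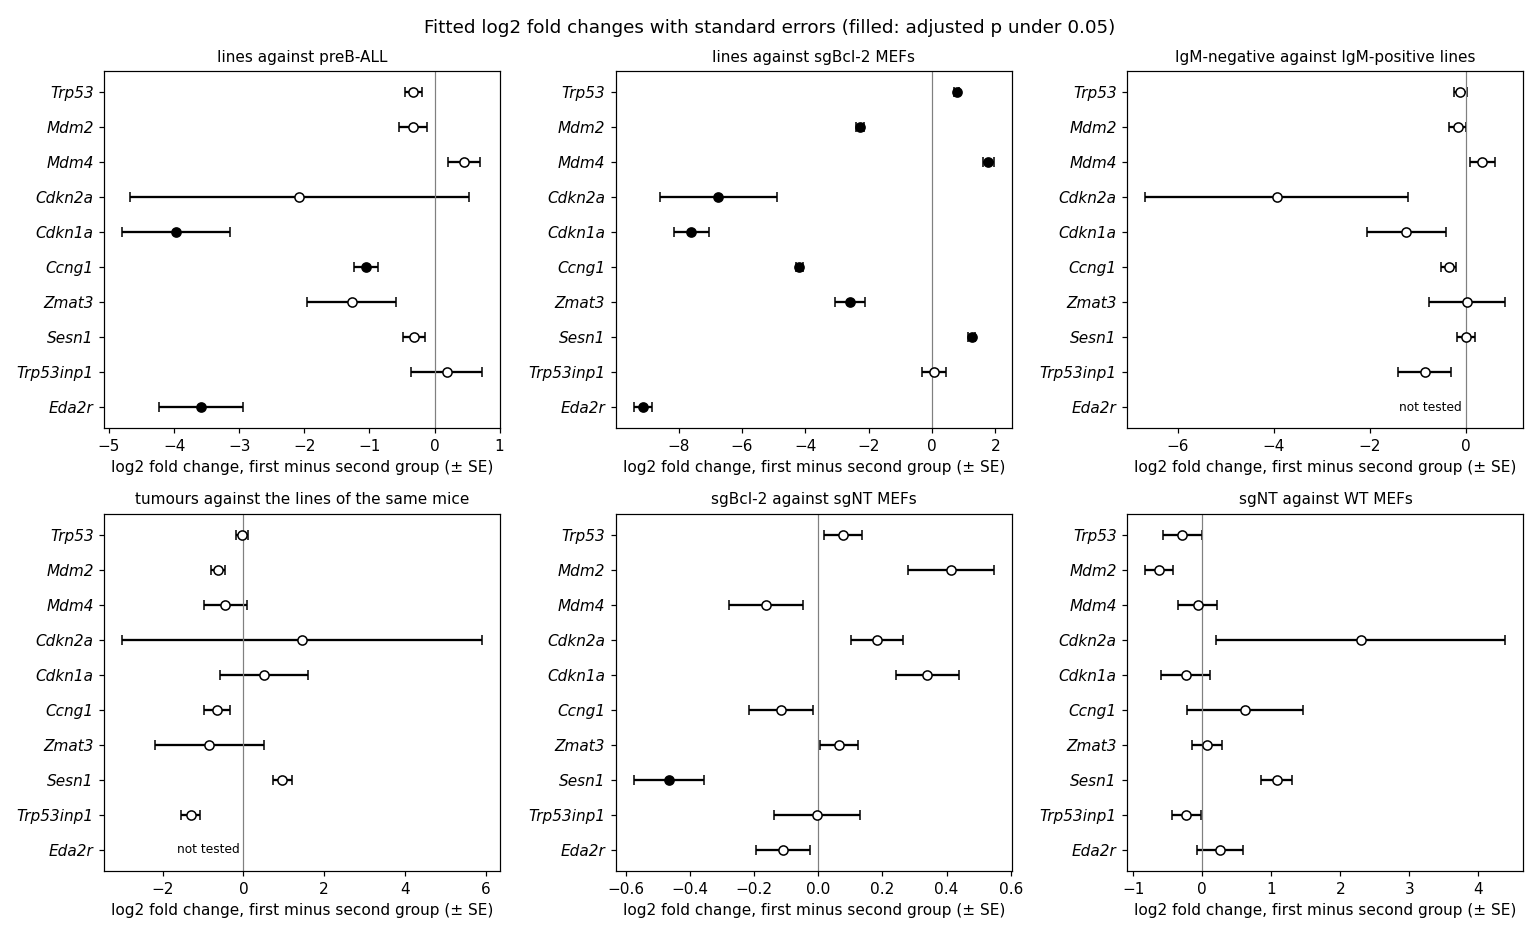
Fitted log2 fold changes (x axis, first minus second group, bars ± SE) of the 10 genes in the 6 comparisons, each with its own x scale. Filled points passed the adjusted p threshold of 0.05: 3 in lines against preB-ALL, 9 in lines against sg*Bcl-2* MEFs, 1 in sg*Bcl-2* against sgNT MEFs and 0 in the other 3. The filled *Eda2r* points could pass only as lower.

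IgM-negative lines (n = 2) were compared with IgM-positive lines (n = 4), grouped by the IgM status in their labels. None of the 9 genes tested passed with limma, edgeR, DESeq2 or limma-voom, and *Eda2r* was too low to test. The groups overlapped for all of the 10 genes except *Ccng1*, beside 22.6% of all genes tested that did not overlap. *Ccng1* was at 62.3 and 72.2 CPM in the IgM-negative lines and 75.2 to 112 in the IgM-positive ones (-0.36 ± 0.16, limma adjusted p = 0.468). *Cdkn2a* was at 0.859 and 0 CPM against 0.0811 to 276 (-3.94 ± 2.73, adjusted p = 0.627). *Trp53inp1* was at 91.8 and 101 CPM against 78.01 to 312 (-0.86 ± 0.55, adjusted p = 0.599). The smallest adjusted p that any alternative gave for one of the 10 genes was that of *Trp53inp1*, 0.257. Of all 12386 genes tested, 0.597% passed, 0.549% were lower and 0.0484% higher in the IgM-negative lines, and at an unadjusted p under 0.05 there were 1397 genes but none of the 10.

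Primary tumours were compared with the cell lines of the same 2 mice, lines A and B. No gene of the 9 tested passed with limma, 3 of them (*Mdm2*, *Sesn1*, *Trp53inp1*) had an unadjusted p under 0.05, and DESeq2 called 2 (*Sesn1*, *Trp53inp1*) and edgeR and limma-voom 0. Over all 12719 genes, 25.9% had an unadjusted p under 0.05 and DESeq2 called 16.5%, while limma found 0.33% in either direction, 0.267% higher and 0.0629% lower in the tumours, and *Eda2r* was again too low to test. *Trp53inp1* was at 107 and 153 CPM in the tumours and 312 and 302 in the lines (-1.31 ± 0.23, limma adjusted p = 0.0771), and *Mdm2* at 52.0 and 60.5 against 85.4 and 81.9 (-0.62 ± 0.18, adjusted p = 0.128). *Sesn1* was at 87.6 and 120.3 against 44.1 and 58.4 (0.97 ± 0.25, adjusted p = 0.109). *Ccng1* was at 49.8 and 84.2 against 87.4 and 112 (-0.66 ± 0.32, adjusted p = 0.274). The 2 groups did not overlap for these 4 genes and for *Eda2r* (1 read in each tumour, 4 and 3 in the lines). Of all genes tested, 57.1% had groups that did not overlap. *Trp53* averaged 230.5 CPM in tumours and 228.9 in lines (-0.04 ± 0.14 after TMM scaling, which shifted all genes by a median of -0.05; adjusted p = 0.898). Myeloid markers summed to 41.6 and 31.1 CPM in the tumours and 13.1 and 6.11 in the 2 lines, and 0 of 5 tested myeloid markers passed. The tumours' B cell markers summed to 10846 and 11625 CPM against 5223 and 5488, and the part of other cells in these differences was not tested.

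The mouse of each tumour is uncertain, because titles and descriptions give opposite numbers. Over 12719 genes, the difference between the tumours correlated with that between their lines at r = 0.60 when paired by titles. Pairing by descriptions only turns the sign of that value (-0.60), so this is 1 result, given as a description across genes. With a replicate block by the numbers in the titles, 4 of the 10 genes passed: *Trp53inp1* (adjusted p = 0.00909), *Mdm2* (0.0261), *Zmat3* (0.0314) and *Sesn1* (0.0339), where 3600 genes (28.3%) passed in all. With a replicate block by the numbers in the descriptions, 0 of the 10 and 0 of all genes passed. Over all alternatives the adjusted p ranged from 0.000296 to 0.746 for *Trp53inp1*, from 0.0261 to 0.406 for *Mdm2*, from 0.0314 to 0.878 for *Zmat3* and from 0.0151 to 0.354 for *Sesn1*. Paired by title, *Cdkn2a* was 329 against 276 CPM and 1.10 against 0.0811. Paired by description, it was 329 against 0.0811 and 1.10 against 276. *Sesn1* was 1.5-fold and 2.73-fold higher in the tumour by titles, and *Trp53inp1* was at 0.355 and 0.489 of the line's level.

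**Figure D4:**
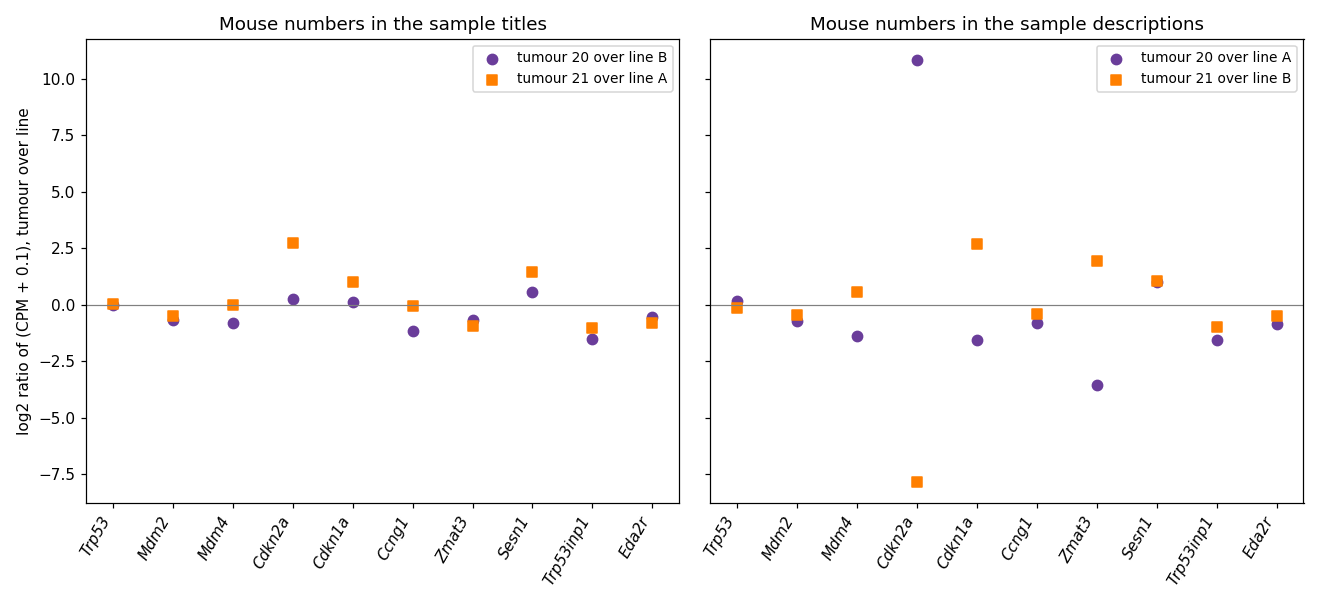
log2 ratio of (CPM + 0.1), tumour over line, for the 10 genes (x axis) when tumours and lines are paired by the mouse numbers in the sample titles (left) or descriptions (right), with 1 point per pair. By titles both *Cdkn2a* points lie above 0 and the *Zmat3* points lie close together, by descriptions the 2 points of each of these genes lie far apart on either side of 0, and the *Sesn1* points lie closer by descriptions.

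Activation of *Bcl-2* in MEFs was assessed by comparing sg*Bcl-2* (n = 4) with sgNT (n = 2) in *dCas9a-SAM* KI/+ MEFs. *Sesn1* was lower, at 20.6, 20.3, 22.4 and 17.1 CPM against 27.9 and 31.03 (1.38-fold, -0.46 ± 0.11, limma adjusted p = 0.0326), and was the only one of the 10 that passed, beside 4.24% of 14676 genes that were lower and 6.61% that were higher. *Cdkn1a* was at 619 to 746 against 595 and 528 (0.34 ± 0.10, adjusted p = 0.0607) and *Mdm2* at 265 to 368 against 252 and 227 (0.41 ± 0.13, 0.0827). Neither passed, although their groups, like those of *Ccng1* (1179 to 1425 against 1584 and 1441), did not overlap. With *Sesn1* these were 4 of the 10, beside 44% of all genes tested. *Trp53* (108 to 114 against 113 and 109), *Cdkn2a* (177 to 200.1 against 197 and 159) and *Zmat3* (182 to 195 against 195 and 190) overlapped. The *Sesn1* levels of the MEFs without an sgRNA (16.4 and 15.2) and of the WT MEFs (13.5 and 14.6) were also below those of sgNT.

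The *Sesn1* call ended when either sgNT library was left out (log2 change -0.57 without line 1 and -0.36 without line 2). It also ended without the first or the second sg*Bcl-2* library of line 1 (-0.48 and -0.47, limma adjusted p = 0.0639 and 0.0595). The same held with all 10 MEF libraries in the fit (-0.46, adjusted p = 0.177). Over the alternatives its change ranged from -0.57 to -0.36, so the direction was kept. A lone sgNT library is assumed to vary like the sg*Bcl-2* ones. With a replicate block by MEF line, *Cdkn1a* passed as well (adjusted p = 0.0494, range 0.00992 to 0.603), but not when the reads of both sg*Bcl-2* libraries from a line were added together (0.0771). DESeq2, with 14.2% of all genes called, also called *Cdkn1a* (adjusted p = 0.00992) and *Mdm2* (0.017), and limma called *Mdm2* without the second sg*Bcl-2* library of line 2 (0.032), where the range for *Mdm2* was 0.017 to 0.307. Without a scaling factor the split of all calls turned from 970 higher and 622 lower to 710 and 1137.

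MEFs with both the cassette and a non-targeting guide were compared with WT MEFs that carried neither (sgNT against WT, 2 libraries each). No gene of the 10 and 0 of all 14560 genes passed with limma, 589 genes (of the 10, *Sesn1* and *Mdm2*) had an unadjusted p under 0.05, and DESeq2 called 88 genes, none of them among the 10, so 0% of genes form the background here. *Sesn1* was at 27.9 and 31.03 CPM against 13.5 and 14.6 (1.08 ± 0.22, adjusted p = 0.8) and *Mdm2* at 252 and 227 against 340 and 406 (-0.62 ± 0.20, adjusted p = 0.8), and these 2 of the 10 had groups that did not overlap, beside 37.9% of all genes tested. *Sesn1* in MEFs with the cassette but no guide was at 16.4 and 15.2 CPM. Each WT library decided other calls, and the WT library of line 2 differed in its markers (fibroblast sum 3502 against 11418 to 19000 CPM in the other MEFs, myeloid sum 221 against at most 8.58), whose part in these values was not tested. *Cdkn2a* was 0.74 lower on the log2 scale in sgNT without that library (adjusted p = 0.00478) and 5.38 higher without the WT library of line 1 (adjusted p = 0.00394, range over the alternatives 0.00394 to 1), and the count of the 10 genes that passed was 4 and 8, beside 11.2% and 53.4% of all genes tested, respectively. With 1 WT library left, it is assumed to vary like the sgNT pair, and the block by MEF line number changed no call of the 10, where the WT lines are other lines than the *dCas9a-SAM* ones.

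Other p53 targets were described from a list of 31. Against preB-ALL, 1 of 29 tested was higher in the lines, the nuclease gene *Aen* (67.4 ± 10.0 SD against 47.2 ± 6.56 CPM, adjusted p = 0.00441), and 8 were lower. Of the 8, 3 reached the low-count filter in no line and could pass only as lower: the autophagy gene *Dram1* (0.0133 ± 0.0206 SD against 5.78 ± 4.20 CPM), the death receptor *Fas* (0.0566 ± 0.120 against 5.70 ± 2.48) and the stress cytokine *Gdf15* (0.127 ± 0.0754 against 2.22 ± 0.0755). The shares over all genes were 20.9% higher and 22.5% lower. The median change was -0.47 for the list and -0.07 for all genes, and fibroblast markers, at 3907 and 1769 CPM in preB-ALL and at most 35.0 in a line, moved the same way.

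Against sg*Bcl-2* MEFs, 8 of 30 tested targets were higher in the lines and 15 lower, beside 36.3% and 45% of all genes, with a median of -1.05. The death receptor *Tnfrsf10b* was lower in limma (log2 change -6.70 ± 0.27, adjusted p = 2.19e-09). *Dram1* (0.0133 against 31.7 CPM), *Fas* and *Gdf15* (0.127 against 13.9 CPM) passed the low-count filter only through the MEFs, so these 3 of the 15 could pass only as lower. The translesion polymerase gene *Polh* (1.61 ± 0.13, adjusted p = 6.15e-07), the phosphatase *Ppm1d* (1.19 ± 0.10, 1.32e-06) and the mitochondrial reductase *Fdxr* (2.46 ± 0.25, 4e-06) were higher. Between sg*Bcl-2* and sgNT MEFs, *Dram1* (31.7 ± 9.26 against 12.6 ± 1.49 CPM, adjusted p = 0.016) and the antiproliferative *Btg2* (130.3 ± 37.5 against 63.4 ± 7.73, 0.0248) were higher and the translesion polymerase gene *Polk* lower (60.4 ± 0.663 against 76.8 ± 0.798, 0.0299). Of the list, 0 passed in the other 3 comparisons.

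Of 24 regulators of ARF and p53, 9 of 23 tested were higher in the lines than in preB-ALL and 4 lower, beside 20.9% and 22.5% of all genes. *Myc*, the oncogene that the transgene expresses, was at 1756 ± 476 against 347 ± 178 CPM (adjusted p = 0.000606), the DNA damage kinase gene *Atm* at 132 ± 24.2 against 54.4 ± 11.3 (0.000458) and *E2f1*, an activator of the ARF promoter, at 90.3 ± 13.8 against 49.6 ± 2.18 (0.00145). All 4 lower ones (*Twist1*, *Trp63*, *Tbx3* and *Tbx2*) passed the low-count filter only through preB-ALL, so their direction was fixed and their levels are a description. *Twist1*, a repressor of ARF, and *Trp63*, a relative of p53, had 0 reads in all 6 lines, at least 237-fold and 146-fold below their preB-ALL means of 4.86 and 2.99 CPM at a floor of 3 reads over the group, and *Tbx3*, likewise a repressor of ARF, was at 0.0166 against 0.548 CPM. *Twist1* and *Tbx3* were at 59.3 and 21.4 CPM in sg*Bcl-2* MEFs and *Trp63* at 0.324, below its preB-ALL level. The fibroblast markers in the preB-ALL libraries moved with these levels, and their part in them was not tested. Against sg*Bcl-2* MEFs, 14 of 22 were higher (36.3% of all genes were), among them *Ezh2*, a Polycomb methyltransferase that silences the *Cdkn2a* locus (3.79 ± 0.12, adjusted p = 2.47e-10), the checkpoint kinase gene *Chek1* (3.64 ± 0.12, 4.6e-10) and *Myc* (4.52 ± 0.20, 4.91e-09). Of the 5 lower ones (45% of all genes), 3 passed the low-count filter only through the MEFs: *Twist1* (at least 2896-fold lower), *Tbx3* (0.0166 against 21.4 CPM) and *Tbx2* (0.134 against 6.55). The neighbour *Mtap* passed in none of the 6 comparisons (largest change 0.33 ± 0.16, between IgM classes), and *Cdkn2b* was called lower in the lines than in sg*Bcl-2* MEFs (-8.84 ± 0.70, limma adjusted p = 5.79e-07) and in no other comparison. Only line B (2.25 CPM) of the lines reached the low-count filter (0.405 CPM) for *Cdkn2b*, and the others held at most 0.114 CPM. Its test thus depended on the MEFs and could in practice pass only as lower, so the call supports nothing. The size of the change depends on the pseudocount.

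For 3 of the genes, the other genes with the most similar pattern of log2 levels over the 6 lines and 2 tumours were listed from 11499 with a mean of at least 1 CPM, by Pearson's r of log2(CPM + 0.1). For *Cdkn2a* these were *Pop7* (r = 0.98), *Ufd1* (0.97) and *Cep20* (0.96). *Pop7* was at 36.2 and 36.3 CPM in line B and tumour 20 and at 19.3 to 25.3 in the other 6, and by their titles those 2 libraries share a mouse. For *Cdkn1a* they were *Sv2a* (0.97), *Tprkb* (0.96) and *Zfp579* (0.96), and for *Trp53* *Cdh24* (0.96), *Mtrf1l* (0.95) and *Rapgef2* (0.95). These are the highest of 11499 values over 8 libraries and are given as a description.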

How the data were processed

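RNA-seq was analysed in 20 libraries, grouped by their sample labels. The authors aligned reads with Rsubread to GRCm38, counted them per Entrez gene and deposited CPM, not log-transformed and without a scaling factor. The strand setting of the counting is not given in the sources used here, which leaves genes with an antisense or overlapping neighbour uncertain. Of 25869 identifiers, 25242 matched the RefSeq GRCm38.p6 gene table. The deposited CPM steps gave whole reads for 100% of values (tolerance 0.01 read), and recovered depth was 12474885 to 26678417 reads.

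For each comparison, genes were kept with filterByExpr (edgeR 4.0.16) on recovered reads, TMM factors were computed, and limma 3.58.1 (R 4.3.3) was fitted with a mean-variance trend to log2(scaled CPM + 0.1), which understates changes of low genes. P-values were Benjamini-Hochberg adjusted with a threshold of 0.05. Levels are deposited CPM. Fits were tested only on simulated data with large changes and a common small spread. That does not show how they handle the smaller changes and larger spreads found here. The alternatives tried were edgeR quasi-likelihood, DESeq2 1.42.0 and limma-voom on recovered reads, no scaling factor, no low-count filter, a pseudocount of 1, single libraries left out, replicate blocks, all 10 MEF libraries, summed libraries and other sets of lines or tumours.

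MEF line numbers pair sgNT and sgBcl-2 libraries by label. The line 1 minus line 2 differences correlated across 15158 genes at r = 0.33 between these groups, and at -0.05 and -0.13 between MEFs without an sgRNA and sgNT or sgBcl-2. WT MEFs, which are other lines, gave r = 0.05 with MEFs without an sgRNA, 0.06 with sgNT and 0.18 with sgBcl-2. The 10 genes and the lists of other targets, regulators and cell type markers were chosen with earlier results of these data known. All 10 genes were named in each comparison, and of the other lists up to 3 called genes per direction with the smallest adjusted p and groups that did not overlap. Figures were drawn with matplotlib 3.10.9.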

Additional observations from a re-analysis of the deposited data

Results flagged for a closer look

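*Cdkn2b* in line B lay far above the other lines. Its level of 2.25 CPM compared with 0.0406 to 0.114 CPM in the other 5 lines, and the gap to the nearest line was 0.851 of the whole range of log2(CPM + 0.1), both among the 4 IgM-positive lines and among all 6. The outlier test was applied to 12 genes in 3 groups of libraries, 36 times in all, and chance alone marks about 1 group in 20.

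*Sesn1* in MEFs without an sgRNA, which form no group of the 6 main comparisons, was above both WT MEF libraries, with a mean of 15.8 CPM (16.4 and 15.2) against 13.5 and 14.6. It was the only one of the 10 genes for which both libraries were above both WT libraries.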

How the results depend on the processing

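Of 810 fold changes of the 10 genes recomputed under an alternative, 729 kept their direction and side of the threshold, 28 passed it newly, 7 no longer passed and 45 changed sign without passing either time. The only called reversal was *Cdkn2a* in sgNT against WT MEFs without the WT library of line 2 (-0.74, against 5.38 without that of line 1). Leaving out single libraries gave 3177 to 6061 genes and 2 to 4 of the 10 for lines against preB-ALL, 0 to 8424 and 0 to 8 for sgNT against WT MEFs, 156 to 1638 and 0 to 2 for sgBcl-2 against sgNT MEFs, 35 to 117 genes between IgM classes, and 0 genes for tumours against lines. Single libraries that moved a count of genes over 1.5 times were preB-ALL library 2 (3177), either sgNT library (156 and 198) and the first sgBcl-2 library of line 1 (960) in their comparisons, either WT library (8424 without line 1, 1644 without line 2) and the sgNT library of line 1 (3), lines A and D (35 each), B (48) and F (117) between IgM classes, and each of the 4 libraries of tumours against lines.

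For lines against preB-ALL, 6 of the 10 and 43.6% of all genes passed without a scaling factor, and 3668 genes passed with tumours in place of their lines. For sgNT against WT MEFs, DESeq2 called 88 genes, and the fit of all 10 MEF libraries called 68 and 1 of the 10 (*Sesn1*). For sgBcl-2 against sgNT MEFs, the fit of all 10 MEF libraries called 64 genes and 0 of the 10, DESeq2 3 of the 10 and 14.2% of all genes, and the replicate block by MEF line 2 of the 10. That block left sgNT against WT MEFs at 0 genes and moved sgBcl-2 against sgNT from 1592 to 2148 genes. Between IgM classes (74 genes), edgeR called 24, DESeq2 749, limma-voom 1 and a pseudocount of 1 gave 47. For tumours against lines (42 genes), edgeR, limma-voom and no low-count filter called 0, DESeq2 2100 and 2 of the 10, no scaling factor 79, the replicate block by titles 3600 and 4 of the 10, the block by descriptions 0, all 4 IgM-positive lines 1418, and all 6 lines 2579 and 1 of the 10. The cause of these moves was not tested. All 9 calls of lines against sgBcl-2 MEFs held when any library was left out. That of *Eda2r* could pass only as lower, so its holding shows nothing, and that of *Cdkn2a* was lost with edgeR's quasi-likelihood test (adjusted p = 0.25). Values of a few reads, as for *Eda2r* in lymphomas, are limited by depth.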
